A study of Mus musculus with 16 samples.

Results

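The genes described here are 10 genes of interstitial fibrosis and the myofibroblast: Col1a1, Col1a2, Col3a1, Fn1, Tgfb1, Ccn2, Acta2, Vim, Timp1 and Postn. They were taken from the gene count table by symbol, each matched 1 row, and all 10 were among the 25408 of 57186 genes with at least 100 counts over the 16 libraries. RNA was from whole kidneys of male mice on a C57BL/6J background, and every mouse, controls included, was Elmo1 H/H, an allele that raises expression of the engulfment gene Elmo1. The non-diabetic mice were Ins2+/+ and the diabetic mice Ins2Akita/+, whose misfolded insulin damages beta cells. Each genotype was left untreated (ND_C and D_C) or given vitamin B12 (10 mg/kg each day, in the water they drank) from the age of 8 weeks (ND_B12 and D_B12), with 4 libraries per group, and kidneys were taken at the age of 16 weeks. The labels state 16 weeks of treatment, which is longer than that interval.

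The grouping below is that of the labels, and some libraries went against it. Group means listed by the study for 149 genes were compared with the mean of every possible set of 4 libraries, 1820 sets per group. For each group, 1 set came far closer than any other, and these sets placed each library once. Of the 16 libraries, 5 fell in their labelled group and 11 in another, and 2 of the 11, labelled ND_B12 4 and D_C 1, changed between the diabetic and the non-diabetic class. The 4 libraries labelled D_B12 matched the untreated diabetic mean. The B12-treated diabetic mean was matched by D_C 2, D_C 3, D_C 4 and ND_B12 4. The sign of each B12 difference in diabetic kidneys and each interaction therefore rest on the labels alone. So does the naming of a diabetes difference as one of untreated or of B12-treated kidneys. Which assignment is right was not tested. Dates in the labels ran in group order, so date and group cannot be told apart. Markers of proximal tubule, podocytes and endothelium were present in every library, which held 65271308 to 91771136 counts. The labels number biological replicates, and the study describes its samples as biologically distinct.

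Scarring of the kidney interstitium is laid down by fibroblasts and by the contractile myofibroblasts that arise beside injured tubules. Transforming growth factor beta, encoded by Tgfb1, is the best known signal for this change, and Ccn2 (connective tissue growth factor) is among its targets. The cells secrete fibrillar collagens and fibronectin, acquire smooth muscle actin, and leave a matrix whose removal is slowed by inhibitors such as Timp1. In whole kidney RNA, more cells of a type and more RNA per cell cannot be told apart.

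With edgeR's quasi-likelihood test and Benjamini-Hochberg adjustment over all genes tested, 0 of the 10 genes passed an adjusted p-value of 0.05 in any comparison. For diabetes in untreated kidneys the share of all genes called was 1.66%, for diabetes in B12-treated kidneys 0.823%, and for the diabetes effect averaged over treatments 3.02%. For B12 in diabetic kidneys, B12 in non-diabetic kidneys, the average B12 effect and the interaction of diabetes and B12 it was 0%. Of these 4, B12 in diabetic kidneys and the interaction had 204 and 753 genes called when the label date was a covariate, and 216 and 87 without D_C 1 and ND_B12 4, with 0 members among them. At an unadjusted p-value below 0.05 the members counted 0, 2 and 1 in the first 3 of these comparisons and 1, 2, 2 and 1 in the other 4, where the share of all genes was 18.6%, 17.0%, 19.4%, 13.6%, 7.62%, 5.20% and 16.1%. DESeq2 called 1 member, Fn1, for diabetes in B12-treated kidneys (adjusted p = 0.0393, DESeq2) and for the average diabetes effect (adjusted p = 0.0106, DESeq2). In these 2 comparisons it called 4.68% and 7.23% of all genes. It called 0 members for diabetes in untreated kidneys (6.44% of all genes), B12 in diabetic kidneys (2.64%), B12 in non-diabetic kidneys (0.0236%), the average B12 effect (0.0236%) and the interaction (3.71%). On counts simulated for diabetes in untreated kidneys, DESeq2 made more false calls than edgeR. Those counts were drawn with the means and dispersions of the edgeR fit, so they cannot rank the tools fairly. DESeq2 calls are given only beside those of edgeR. In 3 of the 4 comparisons of single groups 0 members had groups that did not overlap, beside 9.44% of all genes for diabetes in untreated kidneys, 6.58% for B12 in diabetic kidneys and 4.81% for B12 in non-diabetic kidneys. Of the 10 estimates, 9 were above 0 for diabetes in untreated kidneys, with a median log2 fold change of 0.23 beside one near 0 over all genes. For B12 in diabetic kidneys 4 were above 0, with a median of -0.10, again beside one near 0. Without D_C 3 these medians were 0.08 and 0.12, so the second changed sign. Between libraries of a group, the median deviation of the members had an SD of 0.28 on the log2 scale. Several members were correlated with one another, so their signs are not separate results.

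**Figure D1:**
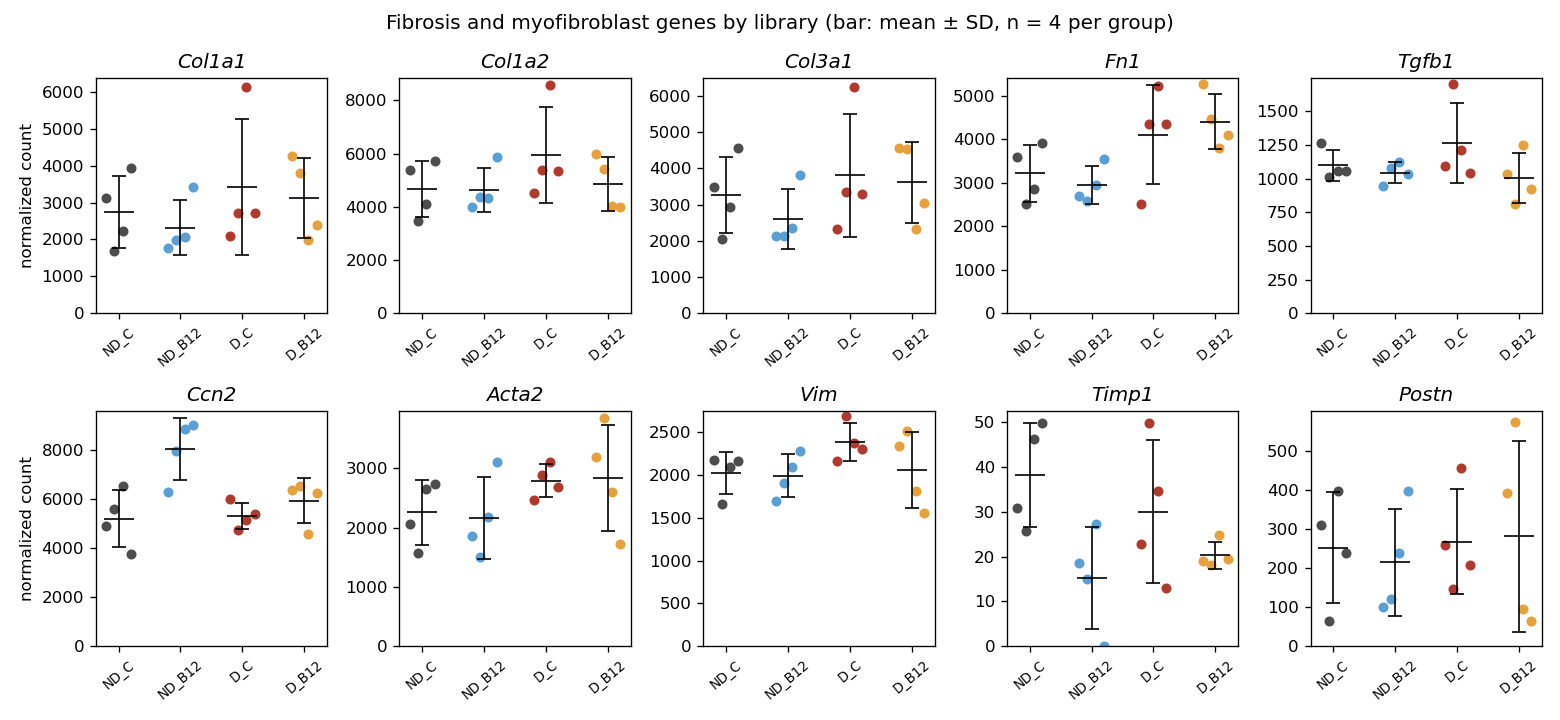
Normalized counts (vertical axes, from 0) of the 10 genes in each library, by labelled group; bars are the mean and SD of 4 libraries. The 3 highest Ccn2 values are ND_B12 libraries, and every D_B12 library is above every ND_B12 library for Fn1, while no other gene has groups without overlap in the 4 comparisons between single groups.

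Col1a1, Col1a2 and Col3a1 encode the chains of collagen I and collagen III, the rope-like collagens of scar. In GRCm39, Col1a1 lies at chr11:94827050-94843868 and Col1a2 at chr6:4504814-4541555, and Col3a1 lies at chr1:45350698-45395840, all on the plus strand. Per kilobase of the canonical transcript, Col1a2 averaged 938.7 normalized counts over the 16 libraries, Col3a1 597.7 and Col1a1 488.9.

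The Col1a1 counts were 3111, 1690, 2240 and 3925 in ND_C, and 1781, 1995, 2077 and 3431 in ND_B12. They were 2087, 2708, 6137 and 2726 in D_C, and 4273, 3803, 1995 and 2402 in D_B12. A single library, D_C 3, stood above all others, and every pair of groups overlapped. The log2 fold change was 0.32 (SE 0.35, adjusted p = 0.691, edgeR) for diabetes in untreated kidneys, and without D_C 3 it was -0.14. For B12 in diabetic kidneys it was -0.13 (95% interval -0.86 to 0.60), and 0.33 without the same library.

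Col3a1 followed the same libraries, from 2055 in ND_C 2 to 6264 in D_C 3. Its difference for diabetes in untreated kidneys was 0.22 on the log2 scale (SE 0.31, adjusted p = 0.765, edgeR) and turned to -0.13 without D_C 3. Col1a2 ran from 3472 in ND_C 2 to 8574 in D_C 3, and its difference was 0.35 (SE 0.21, adjusted p = 0.385, edgeR), of 0.12 to 0.47 as each library was left out. For B12 in diabetic kidneys Col1a2 gave -0.29 (95% interval -0.73 to 0.15) and Col3a1 -0.07 (-0.73 to 0.58).

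The 3 collagens and fibronectin varied together between libraries. Correlations of all 45 pairs of member genes were taken over the 16 libraries on log2 CPM, with 100000 permutations. Of these, 20 pairs had an adjusted p-value below 0.05 by Pearson's r and by Spearman's rho. They include a negative pair, Ccn2 with Timp1 (r = -0.621, adjusted permutation p = 0.016). Its r was -0.318 without the 2 libraries farthest from the median of Ccn2. Col1a1 with Col3a1 gave r = 0.984 (permutation p = 1e-05, the smallest these permutations can give, adjusted p = 0.00015) and rho = 0.979 (permutation p = 1e-05). Leaving out the 2 libraries farthest from the median of Col1a1 gave r = 0.979. With the group means removed, r was 0.987 for this pair, 0.989 for Col1a1 with Col1a2 and 0.859 for Col1a1 with Fn1. By contrast, the group-centred r of Tgfb1 with the 3 collagens lay between -0.06 and 0.05. The 16 libraries share their scaling, so part of such a relation may be common to all genes, which was not tested.

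**Figure D2:**
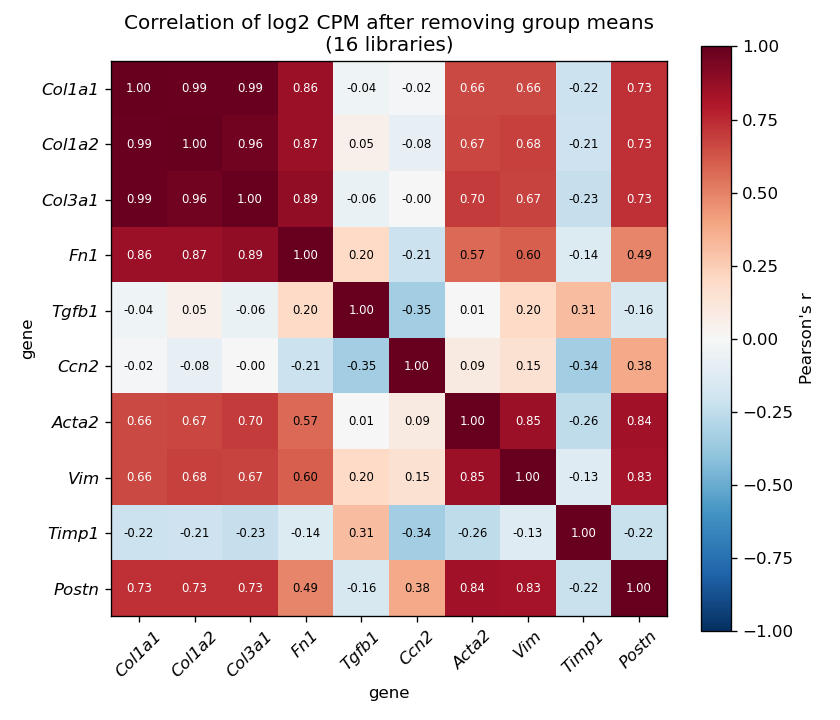
Pearson's r between the 10 genes (both axes) of log2 CPM after removing group means, over 16 libraries; colour runs from -1 to 1. The collagens form a block at 0.96 to 0.99, and Fn1 gives 0.859 to 0.885 with them. Acta2, Vim and Postn form another block at 0.83 to 0.85, which gives 0.657 to 0.731 with the collagens. Tgfb1, Ccn2 and Timp1 stand outside both.

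The 250 bases before the annotated start of the canonical transcript are shown for Col1a1, Col3a1 and Fn1, and for Acta2 of the second block (GRCm39, 5′ to 3′ along the gene). Capitals mark CCAAT or its reverse complement, TATAAA, and AGCCAGACA, the core of a SMAD-responsive repeat. The Col1a1 window is chr11:94826800-94827049 (plus strand), that of Col3a1 chr1:45350448-45350697 (plus), that of Fn1 chr1:71692420-71692669 (minus) and that of Acta2 chr19:34232991-34233240 (minus).
Col1a1: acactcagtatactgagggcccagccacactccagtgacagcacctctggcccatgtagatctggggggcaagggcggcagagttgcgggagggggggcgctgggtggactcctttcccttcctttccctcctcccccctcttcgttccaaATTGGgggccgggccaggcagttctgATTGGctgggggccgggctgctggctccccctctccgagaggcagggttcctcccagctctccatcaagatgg
Col3a1: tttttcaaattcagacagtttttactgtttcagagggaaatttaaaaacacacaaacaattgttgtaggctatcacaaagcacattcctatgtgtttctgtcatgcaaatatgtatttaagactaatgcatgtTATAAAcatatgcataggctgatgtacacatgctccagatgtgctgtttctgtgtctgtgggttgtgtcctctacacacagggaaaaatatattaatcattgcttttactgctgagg
Fn1: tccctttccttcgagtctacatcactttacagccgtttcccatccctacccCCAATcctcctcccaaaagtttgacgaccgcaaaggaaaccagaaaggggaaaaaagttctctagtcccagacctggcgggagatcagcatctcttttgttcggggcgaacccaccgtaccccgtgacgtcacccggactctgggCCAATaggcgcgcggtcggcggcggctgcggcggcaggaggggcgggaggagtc
Acta2: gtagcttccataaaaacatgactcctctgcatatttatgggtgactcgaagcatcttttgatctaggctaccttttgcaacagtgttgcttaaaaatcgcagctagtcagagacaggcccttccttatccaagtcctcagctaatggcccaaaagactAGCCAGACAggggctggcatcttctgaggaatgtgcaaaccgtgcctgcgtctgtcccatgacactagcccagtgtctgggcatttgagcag
On either strand, CCAAT was in the windows of 4 of the 10 genes and in 36.5% of the windows of 21766 protein-coding genes. TATAAA was in 1 of 10 and 11.9%, and AGCCAGACA in 1 of 10 and 0.363%. The AP-1 motif TGANTCA, the SMAD element GTCTAGAC and the strict CArG box were in 0 of the 10, beside 6.17%, 0.239% and 1.4% of all windows. The CArG box was searched only with A or T bases alone between CC and GG, so forms with a substituted base were not counted. No motif searched overlapped another in the 10 windows. The Col1a1 window held 2 CCAAT matches and Col3a1 none. Whether any of these motifs bears on the correlations was not tested.

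Fn1 encodes fibronectin, the glycoprotein on which collagen fibrils are assembled. It lies on the minus strand at chr1:71624673-71692419. Its counts were 3599, 2502, 2860 and 3913 in ND_C and 2697, 2590, 2960 and 3554 in ND_B12. They were 2515, 4348, 5231 and 4343 in D_C and 5264, 4479, 3806 and 4090 in D_B12. Every D_B12 library was above every ND_B12 library, whereas in the untreated groups D_C 1 lay among the non-diabetic libraries and the other 3 above them.

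Fn1 had the smallest adjusted p-value of the 10 genes. Averaged over treatments, its diabetes difference was 0.46 on the log2 scale (SE 0.13, adjusted p = 0.0701, edgeR), which missed the threshold. In B12-treated kidneys the difference was 0.58 (SE 0.19, adjusted p = 0.134, edgeR; exact permutation p = 0.0286, two-sided, the smallest possible with 4 against 4). No other member had groups that did not overlap in that comparison, where 11.7% of all genes did not overlap. In untreated kidneys it was 0.35 (SE 0.19, adjusted p = 0.337, edgeR), and the interaction was 0.22 (SE 0.27, adjusted p = 0.740, edgeR). B12 in diabetic kidneys gave 0.10 (95% interval -0.30 to 0.50).

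The call for Fn1 depended on the libraries that changed class in the comparison with the listed group means. Without D_C 1 the average diabetes difference was 0.55 (adjusted p = 0.00726, edgeR), without ND_B12 4 it was 0.52 (adjusted p = 0.0409), and without both it was 0.61 (adjusted p = 0.00234). Without both, Fn1 was also called in untreated kidneys (0.53, adjusted p = 0.0356) and in B12-treated kidneys (0.69, adjusted p = 0.0251). Over all genes the calls also grew without both, from 423 to 2127 in untreated kidneys, from 209 to 695 in B12-treated kidneys and from 767 to 2531 on average. These 2 libraries were picked from the same counts, so the fits without them are no independent support for a difference in Fn1. Leaving out any of the other 14 libraries did not bring Fn1 past the threshold. With the label date as a covariate its average difference was 0.28 (adjusted p = 0.757, edgeR) and that in B12-treated kidneys 0.35 (adjusted p = 0.726).

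Fibronectin is spliced into forms that include or skip extra domains. The deposited transcript table could not be read for this: Fn1-203 held 60.1% of Fn1 transcript counts in the median library, but 0.126% in ND_B12 3, where Fn1-214 led instead. Estimates of this kind also switched for Postn, whose leading transcript changed between 2 forms, and for Timp1. One transcript led in all 16 libraries for the other 7 genes, with at least 83.5% of the counts.

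Tgfb1 encodes the ligand and Ccn2 a matricellular protein induced by it. Tgfb1 (chr7:25386390-25404506, plus strand) gave 1263, 1013, 1058 and 1054 in ND_C and 945, 1076, 1123 and 1033 in ND_B12. It gave 1095, 1699, 1214 and 1042 in D_C and 1035, 811, 1247 and 922 in D_B12. One library, D_C 2, was above the rest, and all groups overlapped. The difference for diabetes in untreated kidneys was 0.20 (SE 0.15, adjusted p = 0.504, edgeR), and 0.02 at the lowest when a library was left out. B12 in diabetic kidneys gave -0.33 (SE 0.15, unadjusted p = 0.041 from the edgeR fit across all genes, adjusted p = 0.342). That difference ran from -0.45 to -0.14 as each library was left out.

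Ccn2 (chr10:24471333-24474900, plus strand) was the most abundant member per kilobase, at 2244.9 normalized counts on average. It gave 4897, 5607, 6536 and 3780 in ND_C and 6291, 7978, 8880 and 9044 in ND_B12. It gave 5995, 4729, 5163 and 5386 in D_C and 6366, 6546, 4572 and 6250 in D_B12. The 3 highest of the 16 libraries were ND_B12 libraries, and the other, ND_B12 1, lay within the range of ND_C. The B12 difference in non-diabetic kidneys was 0.63 on the log2 scale (SE 0.15), with an adjusted p-value of 0.570 in edgeR and 0.0857 in DESeq2, and an exact permutation p of 0.0571. It stayed between 0.51 and 0.76 as each library was left out. In diabetic kidneys it was 0.16 (95% interval -0.17 to 0.49), and the interaction was -0.47 (SE 0.22, adjusted p = 0.297, edgeR). Diabetes in B12-treated kidneys gave -0.44 (SE 0.15, adjusted p = 0.154, edgeR) and in untreated kidneys 0.03 (SE 0.15, adjusted p = 0.945). Ccn2 and Fn1, both known as TGF-beta targets, had estimates of opposite sign for diabetes in B12-treated kidneys.

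**Figure D3:**
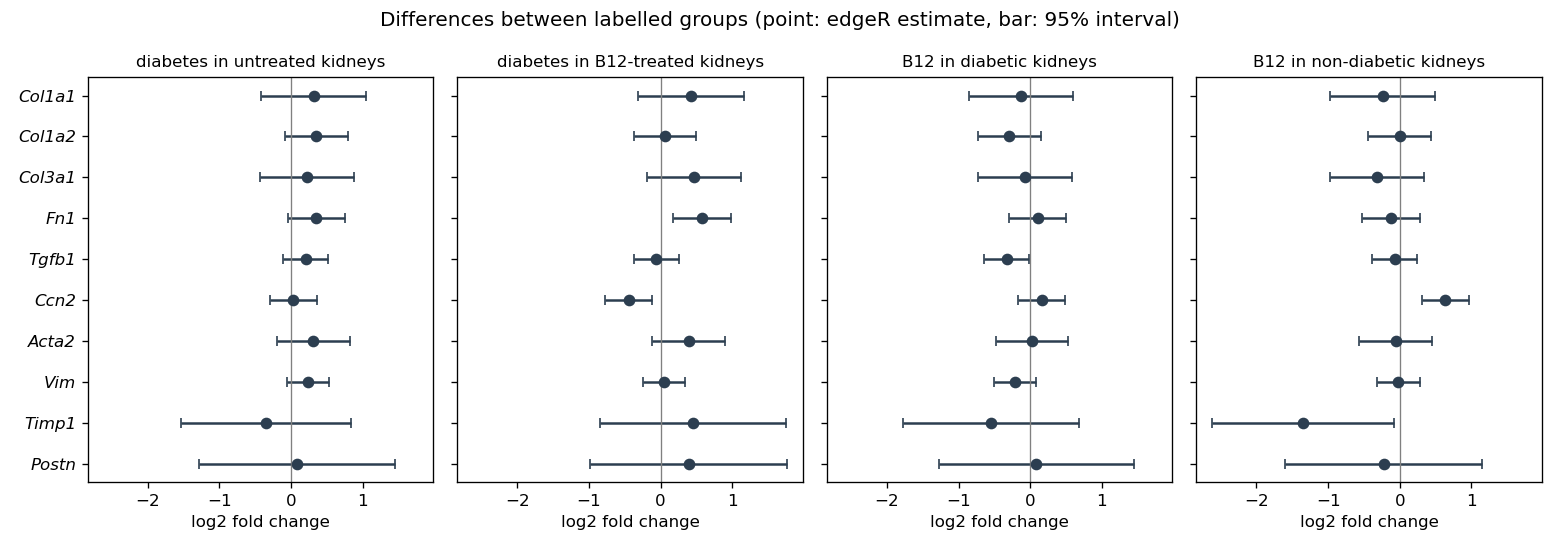
Log2 fold changes (horizontal axes) of the 10 genes in 4 comparisons between labelled groups, from edgeR, with 95% intervals. Most intervals cross 0, those of Fn1 and Ccn2 for diabetes in B12-treated kidneys lie on opposite sides of 0, and Timp1 and Postn have the widest.

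Acta2 encodes the smooth muscle actin used to recognise myofibroblasts and is also made by vessel walls. It lies at chr19:34217737-34232990 on the minus strand, and Stambpl1 on the opposite strand overlaps it, so if counting ignored strand, which was not stated, some reads could belong to either. Of the 10 genes, 8 are overlapped by an annotated gene, most often a long noncoding RNA on the other strand, and the same limit holds for them. Its counts were 2058, 1573, 2654 and 2739 in ND_C and 1856, 1497, 2184 and 3113 in ND_B12. They were 2471, 2894, 3114 and 2688 in D_C and 3185, 3842, 2609 and 1722 in D_B12. The 4 D_C libraries were close together, and each other group spread over at least 1.74-fold. The average diabetes difference was 0.35 (SE 0.17, adjusted p = 0.274, edgeR), and B12 in diabetic kidneys gave 0.03 (95% interval -0.48 to 0.53).

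Vim encodes vimentin, the intermediate filament of mesenchymal cells (chr2:13578738-13587639, plus strand). It varied least among the 10 genes relative to its mean over the 16 libraries, with a coefficient of variation of 15.0%, and ran from 1555 in D_B12 4 to 2689 in D_C 2. Diabetes in untreated kidneys gave 0.23 (SE 0.14, adjusted p = 0.390, edgeR) and B12 in diabetic kidneys -0.21 (SE 0.14, adjusted p = 0.547).

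Postn encodes periostin, a matricellular protein of injured kidney and of connective tissue sheaths (chr3:54268501-54298471, plus strand). Its counts were 309, 64, 396 and 238 in ND_C and 100, 121, 239 and 396 in ND_B12. They were 258, 146, 456 and 207 in D_C and 392, 573, 95 and 66 in D_B12. The highest library was 9.01-fold above the lowest, and each group held both high and low libraries. The average diabetes difference was 0.24 (95% interval -0.73 to 1.21).

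Of the 10 genes, 2 (Postn and Vim) were correlated with markers of the lining of the renal pelvis at an adjusted p-value below 0.05 by Pearson's r, and Postn by Spearman's rho as well. The summed normalized counts of 5 urothelial markers (Upk1a, Upk1b, Upk2, Upk3a and Krt5), all detected, ran from 162 to 2084 in ND_C and 281 to 1370 in ND_B12. They ran from 608 to 2449 in D_C and 76.5 to 1663 in D_B12, and 2 of the 5 were at 0 in some D_B12 library. The libraries with the lowest sums, D_B12 4, ND_C 2, D_B12 3 and ND_B12 1, were also the 4 lowest in Postn.

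Over the 16 libraries, log2 Postn and the log2 urothelial sum gave r = 0.878 (permutation p = 2e-05, adjusted p = 0.0004 over 20 relations) and rho = 0.803 (permutation p = 0.00031, adjusted p = 0.0039). Without the 2 libraries farthest from the median sum r was 0.797, and with group means removed 0.909. Vim gave r = 0.763 (permutation p = 0.00081, adjusted p = 0.0081) but rho = 0.491 (permutation p = 0.056, adjusted p = 0.14), with r = 0.530 without the 2 farthest libraries and 0.799 with group means removed. For Fn1 r was 0.130 (permutation p = 0.63, adjusted p = 0.84) and rho 0.082 (permutation p = 0.76, adjusted p = 0.76). Acta2, Col1a2, Col1a1 and Col3a1 gave r = 0.561, 0.580, 0.507 and 0.469 (adjusted permutation p = 0.067, 0.061, 0.11 and 0.15). With group means removed these were 0.702, 0.594, 0.571 and 0.541, while Fn1, Ccn2, Tgfb1 and Timp1 lay between -0.168 and 0.312. A sum of 5 adipocyte markers ran from 2157 to 12962 over all libraries. With Postn it gave r = 0.744 (permutation p = 0.0012, adjusted p = 0.0082) and rho = 0.800 (permutation p = 0.00039, adjusted p = 0.0039). With Acta2 it gave r = 0.705 (permutation p = 0.0026, adjusted p = 0.013) and rho = 0.709 (permutation p = 0.0032, adjusted p = 0.021). With Vim it gave r = 0.618 (permutation p = 0.011, adjusted p = 0.044) but rho = 0.624 (permutation p = 0.012, adjusted p = 0.059).

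With the urothelial sum as a covariate, added after its values were seen, the SE of the average diabetes difference of Postn fell from 0.46 to 0.22 while its estimate was 0.29. For Acta2 the estimate was 0.38 (SE 0.13, adjusted p = 0.109, edgeR), whereas with the adipocyte sum it was 0.23 (adjusted p = 0.398, edgeR). With the urothelial sum, for Fn1 it was 0.48 (SE 0.13, adjusted p = 0.0585, edgeR). Still 0 of the 10 genes were called in any comparison. The part of pelvic or fatty tissue in these differences was not tested beyond these fits.

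**Figure D4:**
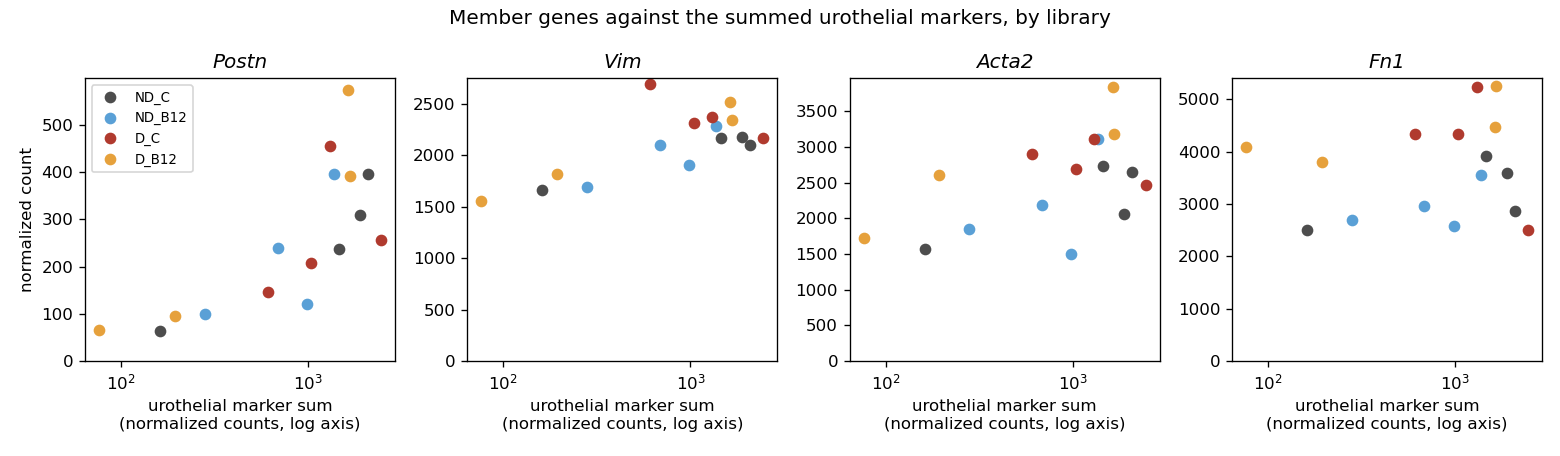
Normalized counts of Postn, Vim, Acta2 and Fn1 (vertical axes, from 0) against the summed counts of 5 urothelial markers (horizontal log axis), 1 point per library, coloured by labelled group. Postn is higher at higher sums (r = 0.878 on log2 scales), while Fn1 shows little relation to the sum (r = 0.130).

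Timp1, an inhibitor of matrix metalloproteinases (chrX:20736316-20740976, plus strand, overlapped by Syn1 on the opposite strand), was the least abundant member, at 27.7 normalized counts per kilobase. Its normalized counts were 30.9, 25.8, 46.4 and 49.9 in ND_C and 18.6, 14.9, 27.4 and 0 in ND_B12, and they ran from 12.9 to 49.8 in D_C and 18.1 to 24.8 in D_B12. Only 1 ND_B12 library reached the ND_C range, and the 0 counts of ND_B12 4 allow up to 3. The B12 difference in non-diabetic kidneys was -1.35 on the log2 scale (SE 0.60, adjusted p = 0.637, edgeR; exact permutation p = 0.0571). At these counts the intervals were wide, for example -1.54 to 0.84 for diabetes in untreated kidneys.

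Around the 10 genes, 6 lists of related genes were examined, of which 91 of 93 genes were tested (P4ha3 and Mmp7 had too few counts). For diabetes in untreated kidneys 5 of the 91 rose and 0 fell, or 5.49%, beside 1.66% of all genes. For the average diabetes effect 4 rose and 2 fell, or 6.59%, beside 3.02%. In the other 5 comparisons 0 of 91 were called by edgeR, including diabetes in B12-treated kidneys, where 0.823% of all genes were. The lists were chosen with earlier results of these data known, so these shares are no test of the lists.

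Among enzymes that fold and cross-link collagen, 1 of 16 rose for diabetes in untreated kidneys and 2 of 16 on average. Loxl4, a lysyl oxidase, was at 164, 179, 186 and 160 in ND_C and 309, 392, 344 and 325 in D_C, with no overlap, as for 9.44% of all genes. In the B12-treated groups it was at 218, 245, 203 and 260 in ND_B12 and 430, 295, 372 and 288 in D_B12. Again there was no overlap, as for 11.7% of all genes. The average difference was 0.78 on the log2 scale (SE 0.10, adjusted p = 0.00408, edgeR), and in all 16 fits without 1 library it kept its call. The difference in untreated kidneys was 0.99 (SE 0.14, adjusted p = 0.0227, edgeR), a call lost without ND_C 2, ND_C 3 or D_C 4. Loxl2, a related enzyme, rose by 0.38 on average (SE 0.09, adjusted p = 0.0378), a call lost in 12 of 16 such fits.

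In the matrix list, 1 of 22 genes rose on average, with a median log2 fold change over the list of 0.16 beside 0.01 over all genes. This was Tnc, tenascin C, a matrix protein made during tissue remodelling, at 1.03 (SE 0.25, adjusted p = 0.0370, edgeR). It was at 1065, 1421, 1422 and 1530 in D_C, all above the 4 ND_C libraries, whose highest was 746. These groups did not overlap for 9.44% of all genes. In D_B12 Tnc was at 1673, 990, 502 and 457, where the last 2 lay within the ND_B12 range of 341 to 737. Those 2 libraries were also low in the urothelial sum. With that sum as a covariate, added after its values were seen, Tnc was at 1.04 (adjusted p = 0.0138, edgeR). Whether Tnc follows the sum, and why it was low in those libraries, was not tested. Its call was lost in 11 of 16 fits without 1 library, with the adipocyte sum (0.97, adjusted p = 0.0690, edgeR), with the replicate block (1.02, adjusted p = 0.0542) and without the filter on low counts (1.03, adjusted p = 0.0596).

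In the TGF-beta list, 3 of 22 genes rose for diabetes in untreated kidneys: Tgfbr3, a co-receptor, by 0.54 (SE 0.09, adjusted p = 0.0227, edgeR), Ltbp1 by 0.55 and Ltbp3 by 0.47 (adjusted p = 0.0380 and 0.0414, edgeR). The last 2 encode proteins that hold latent TGF-beta in the matrix. Tgfbr3 was at 4690, 4061, 3918 and 4156 in ND_C and 6227, 5263, 6017 and 6981 in D_C, with no overlap, as for 9.44% of all genes. In the B12-treated groups the values overlapped and most were lower in D_B12, at 5121, 5156, 4724 and 5207 in ND_B12 and 5041, 4082, 4156 and 3932 in D_B12, a difference of -0.23 (SE 0.09, adjusted p = 0.193, edgeR). The interaction for Tgfbr3 was -0.78 (SE 0.13), with an adjusted p-value of 0.0521 in edgeR and 2.95e-05 in DESeq2. This interaction, and the naming of these calls as untreated, rest on the labels of the diabetic libraries. The Tgfbr3 call was lost without ND_C 2, ND_C 3 or D_C 4, and those of Ltbp1 and Ltbp3 in 8 and 9 of 16 fits. On average 1 of the 22 fell, Smad7, an inhibitor of the pathway, which decreased by 0.31 (SE 0.08, adjusted p = 0.0417, edgeR), a call lost in 13 of 16 fits.

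The remaining lists held 1 call each. Timp3, a tissue inhibitor of metalloproteinases that is very abundant in kidney, decreased by 0.25 on average (SE 0.06, adjusted p = 0.0297, edgeR; 1 of 9 in the turnover list, lost in 8 of 16 fits). Pdgfra, a receptor of fibroblasts, rose by 0.51 in untreated kidneys (SE 0.11, adjusted p = 0.0408; 1 of 11 fibroblast and pericyte genes, lost in 7 of 16). Tagln, a contractile protein of smooth muscle, rose by 0.41 on average (SE 0.11, adjusted p = 0.0476; 1 of 11 contractile genes, lost in 13 of 16). Besides that of Tnc, the calls of Loxl2, Ltbp1, Ltbp3, Smad7, Pdgfra and Tagln were lost without the filter on low counts. Those of Loxl2, Ltbp3, Pdgfra and Tagln were lost with the replicate block. With the adipocyte sum, those of Loxl2, Ltbp3, Smad7 and Tagln were lost. Upper-quartile scaling lost the call of Smad7, and using only the groups compared lost that of Ltbp3. With the label date as a covariate all 11 calls from the lists were lost. The estimates for Smad7 and Timp3 then turned to 0.05 and 0.03. Those of the other 9 calls stayed above 0, at 1.01 on average and 1.15 in untreated kidneys for Loxl4, 0.41 for Loxl2, 1.93 for Tnc, 0.61 for Tgfbr3, 0.77 for Ltbp1, 0.46 for Ltbp3, 0.40 for Pdgfra and 0.38 for Tagln. Adjusted p-values for Loxl4 were 0.122 and 0.0602 (edgeR).

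Among 13174 other genes with a mean of at least 100 normalized counts, those most like Col1a1 after removing group means were Col6a2 (r = 0.908), Eln (0.881), which encodes elastin, and Prss36 (0.880), over 16 libraries. For Acta2 they were Tpm2 (0.961), a tropomyosin of contractile cells, Jph2 (0.909) and Jag2 (0.898), and for Tgfb1 Rras (0.920), Src (0.915) and Limd2 (0.914). These were picked as the highest of many and carry no test.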

How the data were processed

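RNA was extracted by the submitters with the RNeasy Mini Kit, prepared with the Watchmaker Total RNA kit and read as paired ends. The authors aligned reads with STAR to GRCm39 with a GENCODE annotation and deposited estimated counts per gene and per transcript from StringTie. The submitters' processing notes also name bcl2fastq 2.20.0, DESeq2 and limma. The deposited estimated counts were whole numbers, so rounding changed nothing. The study's methods have STAR take strand from intron motifs, but whether the libraries were stranded and whether counting used strand are not given in the sources used here.

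All 16 columns were matched to libraries, and 0 were left over. Genes with under 100 total counts were dropped. The main test was edgeR 4.0.16 (R 4.3.3; glmQLFit and glmQLFTest, TMM, 1 mean per labelled group, all 16 libraries, 12 residual degrees of freedom), two-sided, with Benjamini-Hochberg adjustment. It was tested on data simulated from its own fit, with a first criterion on recovered genes replaced after it was missed. DESeq2 1.42.0, which made more false calls there, was an alternative. Others were upper-quartile scaling, other filters, the label date, the replicate block, only the groups compared, and libraries left out. Normalized counts are counts over median-of-ratios size factors. Log2 CPM used a prior count of 2. Totals were 65271308 to 91771136 and the common biological coefficient of variation was 0.201. For abundant genes, the spread between libraries therefore limited precision more than counting. For Timp1, at raw counts of 0 to 53, counting limited it as well. The edgeR p-values set a group difference against the spread between these libraries, estimated with information shared across genes. Those of the correlations came from permuting the libraries. Figures used matplotlib 3.10.9 and Python 3.11.15. Positions and windows came from the GENCODE vM39 annotation of GRCm39.

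Named genes were the 10 members, called genes of each list (up to 4) and the 3 genes most like each of 3 members. The members and lists were chosen with earlier results of these data known.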

Additional observations from a re-analysis of the deposited data

Results flagged for a closer look

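In 4 of 40 groups of 4 libraries, 1 library lay so far from the others that its gap to the nearest, over the group's range, exceeded Dixon's 95% critical value, and chance gives about 1 in 20. Col1a1 in D_C 3 was at 6137 normalized counts beside 2087 to 2726 in the other D_C libraries. Col3a1 in ND_B12 4 was at 3828 beside 2120 to 2354. Ccn2 in D_B12 3 was at 4572 beside 6250 to 6546. Vim in ND_C 2 was at 1661 beside 2094 to 2181, and that library also had the lowest urothelial sum of its group, at 162. No cause was tested.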

How the results depend on the processing

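Of the 10 genes, 0 were called in every comparison. The count became 1 (Fn1) with DESeq2 for diabetes in B12-treated kidneys and for the average diabetes effect, and 1 without D_C 1 and ND_B12 4 together for both of these and for diabetes in untreated kidneys. Leaving out 1 library gave 0 to 1 for the average diabetes effect and 0 in the other comparisons. The median member difference ranged from 0.08 to 0.34 for diabetes in untreated kidneys and from -0.24 to 0.12 for B12 in diabetic kidneys. Replicate numbers did not pair the libraries: correlations of same-numbered deviations ran from -0.18 to 0.17, and 5 of 16 libraries were closest to their own number. With the replicate block 0 members were called, and over all genes 269 rather than 423 for diabetes in untreated kidneys, 25 rather than 209 in B12-treated kidneys and 478 rather than 767 on average. With DESeq2 these were 1637, 1189 and 1837, with the label date 2, 29 and 0, and without D_C 1 and ND_B12 4 together 2127, 695 and 2531. For B12 in diabetic kidneys and the interaction, both at 0, the label date gave 204 and 753, DESeq2 670 and 943, and leaving out both libraries 216 and 87.

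The following estimates changed sign. With the urothelial sum, B12 in diabetic kidneys gave 0.106 for Col1a1 and 0.129 for Col3a1. With the adipocyte sum it gave -0.0224 for Acta2 and -0.344 for Postn, while diabetes gave -0.0147 for Ccn2 in untreated kidneys and -0.138 for Postn on average. With the label date, B12 in diabetic kidneys gave -0.0397 for Fn1 and 0.0745 for Vim, and average diabetes 0.0542 for Smad7 and 0.0281 for Timp3. Without D_C 1 and ND_B12 4, B12 in diabetic kidneys gave -0.0680 for Fn1 and -0.0234 for Acta2, diabetes -0.0339 for Ccn2 in untreated kidneys and -0.111 for Timp1 on average. With 1 library left out, diabetes in untreated kidneys ranged from -0.137 to 0.544 for Col1a1, -0.133 to 0.431 for Col3a1, -0.0934 to 0.161 for Ccn2 and -0.307 to 0.392 for Postn. B12 in diabetic kidneys ranged from -0.305 to 0.328 for Col1a1, -0.234 to 0.286 for Col3a1, -0.0556 to 0.254 for Fn1, -0.152 to 0.206 for Acta2 and -0.526 to 0.480 for Postn. Average diabetes ranged from -0.0123 to 0.117 for Tgfb1, -0.167 to 0.263 for Timp1 and -0.0661 to 0.485 for Postn. The cause was not tested.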
